A study of Rattus norvegicus with 15 samples.

Results

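The loci described here are 1938 regions that the transcript assembly of this series left without a gene name and that were spliced in at least 1 of their transcripts. A locus was a member if no transcript in it carried a gene name, at least 1 transcript had 2 or more exons, and the summed FPKM of its transcripts (fragments per kilobase of exon, scaled to the depth of the library) averaged at least 0.5 over the 15 libraries. These were 4.81% of the 40272 loci in the table, and 719 further unannotated multi-exon loci lay below the level. The average level chose the members, so levels are given as a description. A locus high in 1 group only could enter through that group, and 303 members averaged under 0.5 in the control libraries. Just above the limit lay MSTRG.24958, MSTRG.5796 and MSTRG.2856 with means of 0.501, 0.504 and 0.504, and just below it MSTRG.16059, MSTRG.25408 and MSTRG.15827 with 0.499, 0.498 and 0.497.

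The libraries were made from poly-A selected RNA of primary brain microvascular endothelial cells (BMECs) cultured to 60% confluence. The cells came from Sprague Dawley rat littermates (labelled Spraque-Dawley), 2 to 3 weeks old and of both sexes. The study asked which transcripts x-rays change in these cells. There were 5 groups of 3 libraries. The control cells were not irradiated and were kept for 12 h, and the other groups received 5 Gy or 20 Gy of x-rays from a linear accelerator and were kept for 12 h or 24 h. Unexposed cells kept for 24 h were not analysed here, so at 24 h the effect of the rays cannot be told apart from that of time in culture. The 4 comparisons with control share the same 3 control libraries. Each library held 5.44 to 7.49 gigabases of aligned sequence, as read from the steps of the FPKM values, and a member of median depth was covered by 65.2 read equivalents of 150 bases per library. The defining genes of endothelium were at or near 0. Tie1 and Emcn were at 0 in every library, Cdh5, Cldn5 and Vwf stayed below 0.3, and Pecam1 had no row. Of 11 endothelial markers with a row, 3 reached a mean FPKM of 1. The summed FPKM of 8 fibroblast markers was 2909.9 to 3501 in control libraries and 891 to 1005 at 24 h, and that of 7 pericyte markers was 153 to 160 and 50.3 to 88.1. Most of the lower fibroblast sum lay in the collagen genes Col1a1, Col1a2 and Col3a1, the last with a mean of 1372 in control and 64.9 and 89.2 at 24 h after 5 and 20 Gy. Dcn, with 195, 82.3 and 82.8 in the same groups, and Lum, with 207, 76.0 and 62.7, were lower at 24 h as well. Fbln1 had 502, 581 and 567 and Pdgfra 81.2, 93.2 and 78.4. Of the 7 pericyte markers, 3 reached a mean FPKM of 1 and made up nearly all of their sum. These were Anpep (96.7, 54.9 and 47.3 in the same groups), Pdgfrb (44.5, 18.2 and 11.7) and Cspg4 (14.7, 6.96 and 6.59). Kcnj8 and Abcc9 were at 0 in every library, Rgs5 had at most 0.227, and Notch3 had 0.153, 0.33 and 0.572. The part of these markers in the results that follow was not tested, and in bulk samples fewer cells of a type and less RNA per cell cannot be told apart.

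A transcript assembler joins overlapping spliced reads into models and keeps those that match no annotated gene as loci of their own. Such loci can be long noncoding RNAs, antisense transcripts, extensions of known genes past the annotated end, or genes that the annotation misses. In unspliced reads the strand is unknown unless the library preparation marks it, and no source used here says that it did. The strand of a spliced model then comes from the bases at its splice sites, so the reads of an antisense locus and of the gene opposite cannot be fully told apart.

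No genome of the build used here was at hand, so the members' own sequences are not printed. For the microRNA gene that 1 of the most changed members touches, Mir34a, the mature products listed by RefSeq (GRCr8) are shown with the seed, bases 2 to 8, in capitals. miR-34a is a microRNA whose gene is a known target of p53.
rno-miR-34a-5p: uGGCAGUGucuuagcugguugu
rno-miR-34a-3p: aAUCAGCAaguauacugcccua
The seeds of the arms differ. Several of the members with the largest changes at 24 h lie opposite heat shock or tubulin genes, and the 250 bases before the start of 3 of these genes are shown 5′ to 3′ from RefSeq (GRCr8). Hspa8 lies on the forward strand of chr8:50080264-50080513, Hspe1 on the forward strand of chr9:64084077-64084326 and Tubb4b on the reverse strand of chr3:28438456-28438705. Capitals mark matches to GAANNTTC or TTCNNGAA, pairs of the inverted GAA unit that heat shock factor binds. Each motif reads the same on both strands, and matches of one can overlap the other.
Hspa8: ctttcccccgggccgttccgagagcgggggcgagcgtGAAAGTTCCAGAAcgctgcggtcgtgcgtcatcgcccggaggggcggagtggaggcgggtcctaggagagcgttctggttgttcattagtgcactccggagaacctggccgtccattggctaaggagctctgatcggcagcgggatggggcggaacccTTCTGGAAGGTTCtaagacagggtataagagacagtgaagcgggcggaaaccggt
Hspe1: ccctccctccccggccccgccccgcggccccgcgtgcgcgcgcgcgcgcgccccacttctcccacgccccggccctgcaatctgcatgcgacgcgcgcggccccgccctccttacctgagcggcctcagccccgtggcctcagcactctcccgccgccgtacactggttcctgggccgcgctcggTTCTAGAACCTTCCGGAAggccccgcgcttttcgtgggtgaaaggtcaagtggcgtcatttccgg
Tubb4b: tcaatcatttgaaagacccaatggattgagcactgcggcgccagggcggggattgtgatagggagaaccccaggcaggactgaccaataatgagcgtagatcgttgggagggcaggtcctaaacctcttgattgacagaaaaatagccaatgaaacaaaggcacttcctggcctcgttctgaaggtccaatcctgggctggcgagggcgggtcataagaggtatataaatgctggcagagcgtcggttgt
The Hspa8 stretch held 4 matches and the Hspe1 stretch held 3, while 13.5% of the 33469 RefSeq promoters of the same length held at least 1. The Tubb4b stretch held none, which says only that these letters are not in this window. These genes were picked with the values of the members opposite known, and whether heat shock factor acts there was not tested.

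Most members were spliced once. At most 2 exons in a transcript were found in 1272 members (65.6%), 341 had 3 exons, 146 had 4, 147 had 5 to 9 and 32 had 10 or more, up to 38. One transcript made up 1266 members, and all members together held 3502 of the table's 85322 transcripts. The genomic span had a median of 4.38 kb (range 0.254 kb to 1438 kb), and the longest transcript of a member had a median length of 947.5 bases (range 201 to 13886). The strands were used about equally, with 991 members on the forward and 947 on the reverse strand. The mean FPKM had a median of 1.29, and 732 members lay between 0.5 and 1, 507 between 1 and 2, 526 between 2 and 10, 151 between 10 and 100 and 22 at 100 or more. Together the members held 2.56% to 3.47% of the FPKM of a library. By group this was 2.86 ± 0.324% in control, 2.76 ± 0.00329% and 2.88 ± 0.155% at 12 h after 5 and 20 Gy, and 2.72 ± 0.144% and 3.11 ± 0.358% at 24 h (SD, n = 3 each), and the ranges of all exposed groups overlapped that of control.

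**Figure D1:**
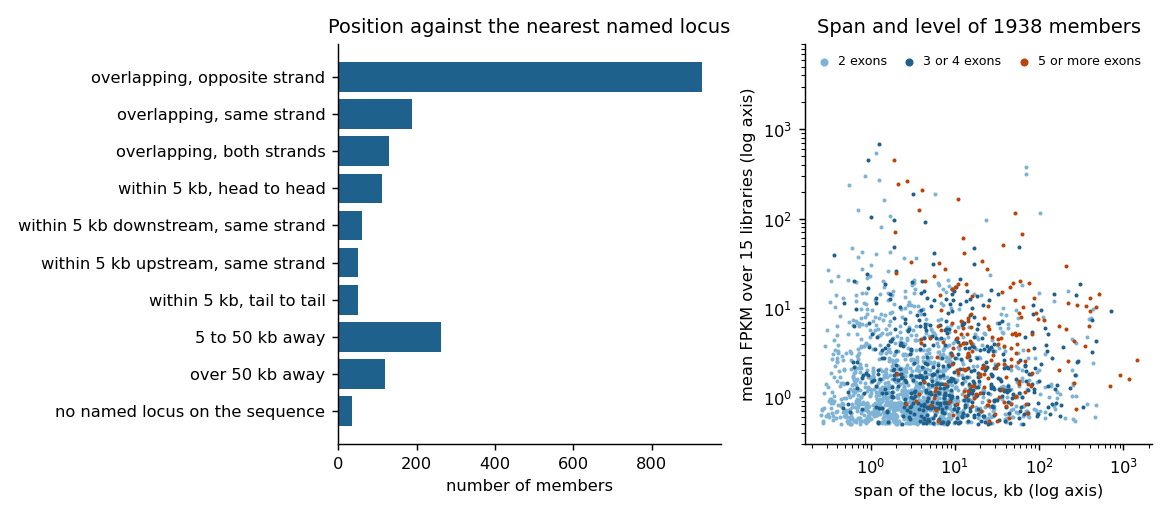
Left, the number of members (bars) by position against the nearest named locus. Right, the span of each of the 1938 members in kb against its mean FPKM over 15 libraries, both on log axes, coloured by the number of exons. Overlap with a named locus on the opposite strand is the most frequent position, with 929 members.

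The members were spread over all chromosomes except Y. Chromosome 1 held the most (212) and chromosome 16 the fewest of the numbered chromosomes (41). A further 49 lay on 43 unplaced sequences and 2 on the mitochondrial genome. Relative to the expressed named multi-exon loci, there were 26.1 members per 100 on chromosome 17 and 20.7 on chromosome 14, against 11.8 on chromosome 16 and 12.1 on chromosome 4. In the comparison of 20 Gy at 24 h with control, in which 41.2% of all loci tested were called, the called share of members was 52.3% on chromosome 17 (86 members), 29% on chromosome 20 (62 members) and 21.9% on the X chromosome (64 members). These shares are a description, since neighbouring loci can share reads.

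Nearly every second member, 929 or 47.9%, overlapped a named locus on the opposite strand only, 188 overlapped one on the same strand and 130 on both. Of those without an overlap, 111 started within 5 kb of the start of a named gene on the other strand (head to head, the layout of a shared promoter region), 60 lay within 5 kb downstream and 51 upstream on the same strand, and 51 lay tail to tail. A further 263 lay 5 to 50 kb away and 119 farther, and 36 were on sequences with no named locus. By contrast, 606 of 2876 unannotated single-exon loci overlapped a named locus at all, against 1247 of 1938 members. The median level by position ran from 1.21 FPKM for members over 50 kb away to 2.18 for those on sequences without a named locus.

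Against control, members were called higher or lower if limma's adjusted p over all 17802 loci tested was below 0.05 and the change at least 1.5-fold on the log2(FPKM + 1) scale. At 12 h after 5 Gy 148 members rose and 85 fell, beside 10.2% of all loci called (5.15% higher and 5.09% lower). At 12 h after 20 Gy 129 rose and 77 fell (8.85% of all loci called, 5.01% higher and 3.84% lower). At 24 h after 5 Gy 330 rose and 442 fell (42% of all loci called, 21.1% higher and 20.9% lower), and in the 20 Gy 24 h group 265 rose and 514 fell (41.2% called, 17.5% higher and 23.7% lower). The 3 exposed libraries lay wholly above or wholly below the 3 control libraries in 627, 589, 1116 and 1089 members in the same order, beside 39.2%, 37.5%, 68.6% and 63.7% of all loci. Members called were 12%, 10.6%, 39.8% and 40.2% of all members, close to the share of all loci at 24 h. Their direction at 24 h leaned lower, with a median log2 change of -0.24 after 20 Gy, beside -0.13 over all loci tested and -0.07 over named multi-exon loci. Unannotated single-exon loci had nearly the same lean, with a median of -0.20 and 33.2% of their calls higher, against 34% of the members' calls. This lean depended on the scaling. After quantile normalization 46.2% of the calls at 24 h after 20 Gy were higher in place of 34%, and the medians were -0.09 for members and -0.03 for all loci.

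**Figure D2:**
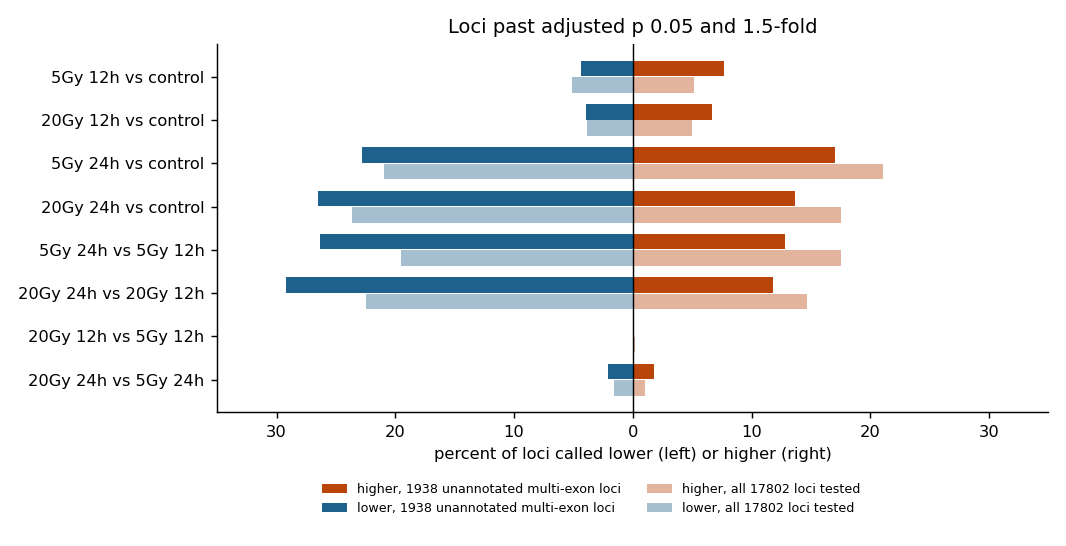
Percent of loci called lower (left) or higher (right) in 8 comparisons, for the 1938 members (dark bars) and all 17802 loci tested (pale bars). In the comparisons with control, the members' bars reach farther than those of all loci to the higher side at 12 h and to the lower side at 24 h.

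From 12 h to 24 h, 249 members rose and 510 fell after 5 Gy (37% of all loci called, 17.5% higher and 19.5% lower), and 228 rose and 566 fell after 20 Gy (37.2% called, 14.7% higher and 22.5% lower). With quantile normalization the higher share of the calls after 20 Gy was 44.2% in place of 28.7%. Between 20 Gy and 5 Gy at 12 h 1 member, MSTRG.9590, was higher and none was lower (0.174% of all loci called by limma, 0.169% higher and 0.00562% lower). An unadjusted p below 0.05 in limma was found for 160 of 1938 members, beside 1298 of all 17802 loci. At 24 h 34 members were higher and 41 lower after 20 Gy (2.59% called, 1.04% higher and 1.54% lower). Rescaling to TPM, in which every library has the same total, changed that split to 38 higher and 99 lower, and fitting only the 2 groups compared left 6 higher and 4 lower. The change from 12 h to 24 h differed between the doses for 19 members (0.652% of all loci called), which became 8 without replicate 1 of the 20 Gy 12 h group and 37 without replicate 3 of the 20 Gy 24 h group. Taking the comparisons with control side by side, 883 members were called in none, beside 47.6% of all loci. Lower at 24 h at both doses and not called at 12 h were 301 members (15.5% of members, 13.8% of all loci). Higher in that pattern were 182 (9.39% of members, 13.1% of all loci). Higher at 12 h only were 51 (2.63% of members, 1.3% of all loci). All 4 comparisons called 22 members higher (1.14% of members, 1.53% of all loci) and 47 lower (2.43% of members, 2.22% of all loci). Another 9 members were higher at 12 h and lower at 24 h at both doses (0.464% of members, 0.236% of all loci). The reverse held for 1, MSTRG.14062 (0.0516% of members, 0.135% of all loci).

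The 4 largest rises at 24 h after 20 Gy were in members that overlap, on the other strand, genes of heat shock proteins, the chaperones that cells make when proteins unfold. MSTRG.13754 (5 exons, chr20:2699852-2701981, forward strand) lies opposite LOC108348108, which RefSeq GRCr8 lists as Hspa1b, an inducible Hsp70. Its FPKM was 0.0922, 1.28 and 0.12 in the control libraries, 0.133, 0.16 and 0.101 in the 5 Gy 12 h group, 1.56, 0.115 and 0.15 in the 20 Gy 12 h group, 295, 289 and 157 in the 5 Gy 24 h group and 1286, 912 and 765 in the 20 Gy 24 h group. All libraries at 24 h were above all others, and those after 20 Gy above those after 5 Gy. The log2 change from control was 7.40 ± 0.36 (SE, adjusted p = 4.2e-09) after 5 Gy and 9.42 ± 0.36 (SE, adjusted p = 4.4e-10) after 20 Gy, and the doses differed by 2.02 ± 0.36 (SE, adjusted p = 0.0079). The named locus had 13, 13.1 and 10.6 in control and 6795, 5521 and 5666 at 24 h after 20 Gy, with log2 changes of 6.87 ± 0.14 and 8.82 ± 0.14 at 24 h. The member's mean was 4.08% of that of the named locus in control and 16.5% at 24 h after 20 Gy. The genome holds near-identical copies of this Hsp70 gene, so the split of reads among them is uncertain.

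MSTRG.22337 (2 exons, chr8:44991509-44992207, reverse strand) lies opposite Hspa8, the constitutive Hsp70 whose promoter is shown above. Its values were 0.64, 0 and 0.271 in the control libraries, 0.369, 0 and 0.158 in the 5 Gy 12 h group, 0.382, 0.581 and 0.355 in the 20 Gy 12 h group, 44.8, 45.5 and 23.1 in the 5 Gy 24 h group and 196, 151 and 92.4 in the 20 Gy 24 h group, again with no overlap between the 24 h libraries and the rest. It rose by 4.86 ± 0.29 (SE, adjusted p = 2.3e-08) on the log2 scale after 5 Gy and 6.78 ± 0.29 (SE, adjusted p = 1.3e-09) after 20 Gy, against 1.51 ± 0.13 and 2.48 ± 0.13 for Hspa8, and went from 0.0772% to 6.64% of the Hspa8 level. MSTRG.23840 (3 exons, chr9:61692315-61694014, reverse strand), opposite Hspe1, the mitochondrial Hsp10, had 0.148 to 0.642 in the 9 libraries of control and 12 h, 25.3, 27.1 and 18.8 at 24 h after 5 Gy and 67.7, 61.9 and 11.7 after 20 Gy. Its rise was 4.09 ± 0.46 (SE, adjusted p = 5.9e-06) and 4.72 ± 0.46 (SE, adjusted p = 1.7e-06), while Hspe1 had a log2 change of 0.53 ± 0.11 (not called) and 1.00 ± 0.11. MSTRG.20405 (chr6:135046171-135108870, forward strand) spans from Dync1h1 to Hsp90aa1, the inducible Hsp90. It overlaps named loci on both strands, with Hsp90aa1 on the other strand. It had 0 to 0.789 in control and 12 h libraries, 15, 11.9 and 9.38 after 5 Gy and 94.6, 112 and 25.8 after 20 Gy at 24 h, and its rises were 3.10 ± 0.41 (SE, adjusted p = 2.2e-05) and 5.46 ± 0.41 (SE, adjusted p = 1.6e-07). In these 4 members replicate 3 was the lowest of the 24 h libraries after 20 Gy. All 4 passed the level limit only through their 24 h libraries, so that limit favoured a rise at 24 h.

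Among 29 heat shock and ubiquitin genes, a list chosen after these values were seen, the overlapping members numbered 12. Limma called none of them at 12 h. Its unadjusted p was below 0.05 for 2 and 1 after 5 and 20 Gy, beside 5812 and 5435 of all 17802 loci. At 24 h 7 rose and 1 fell after 5 Gy, and 8 rose and 1 fell after 20 Gy, beside 21.1% of all loci higher and 20.9% lower after 5 Gy and 17.5% and 23.7% after 20 Gy. The median log2 change of the 12 was 1.1 and 2.25, against -0.05 and -0.13 over all loci. Since the list was picked with these values in view, its counts are no independent evidence of a direction. 3 of them, all opposite Hsph1, the Hsp110 chaperone, were near 0 before 24 h. MSTRG.5818 was listed at 0 in all 9 control and 12 h libraries and had 0.719, 0.743 and 0.473 at 24 h after 5 Gy and 5.98, 5.61 and 2.16 after 20 Gy. MSTRG.11363, opposite the Hsp40 gene Dnajb1, was likewise at 0 before 24 h and then had 1.07, 1.85 and 1.21 and 15.5, 2.88 and 8.28. The members opposite Hsph1 and Dnajb1 passed the level limit only through their 24 h libraries, so that limit favoured a rise at 24 h. MSTRG.17876 went the other way from its partner. This member, which overlaps Dnaja1 on the other strand, had 3.2, 2.61 and 2.88 in control and 1.21, 0.0785 and 0.163 at 24 h after 20 Gy, a log2 change of -1.47 ± 0.34 (SE, adjusted p = 0.002), while Dnaja1 rose by 2.44 ± 0.09. MSTRG.13910, a long member that spans the second Hspa1b locus of the table, was not called, with 22.4, 17.8 and 34 in control and 14.1, 16.2 and 18.5 at 24 h after 20 Gy (adjusted p = 0.067).

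**Figure D3:**
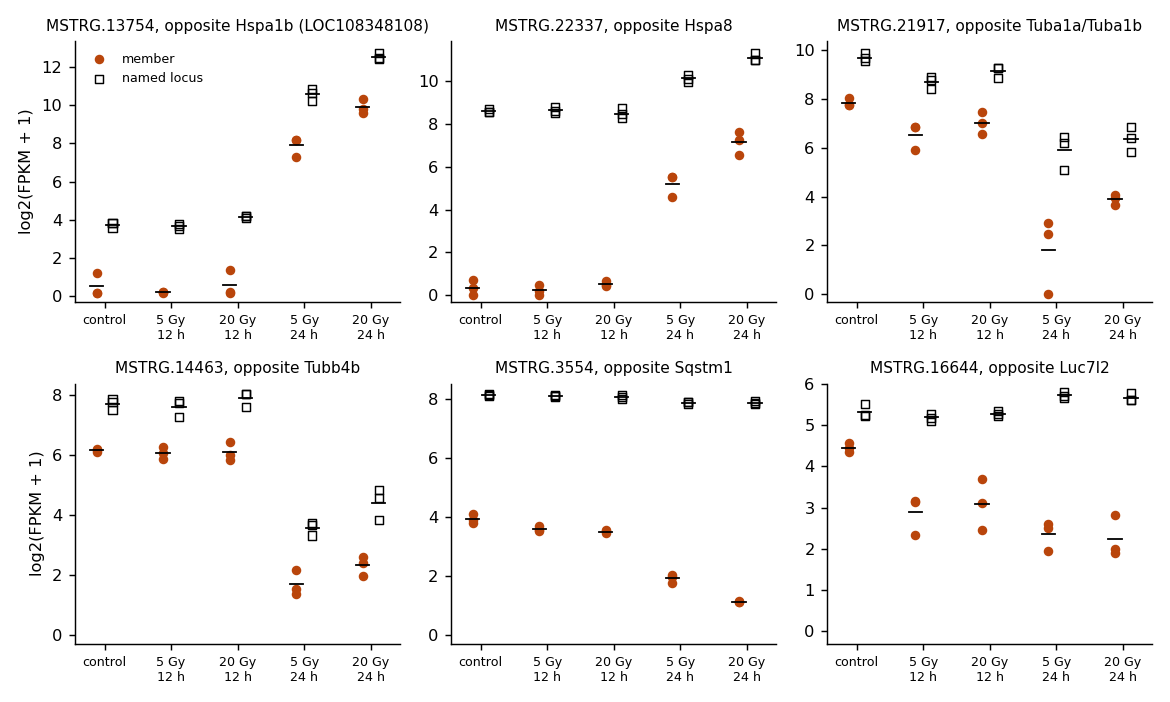
log2(FPKM + 1) of 6 members (filled circles) and of the named locus on the opposite strand (open squares) in every library, by group, with bars at the group means. MSTRG.13754 and MSTRG.22337 rise with the named locus at 24 h, MSTRG.21917 and MSTRG.14463 fall with it, and MSTRG.3554 and MSTRG.16644 fall while the named locus is called in no comparison.

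Among the largest falls at 24 h were those of members opposite tubulin genes, which encode the subunits of microtubules. MSTRG.14463 (chr3:2442250-2443030, forward strand), opposite Tubb4b, had 67, 72.2 and 70.2 in the control libraries, 75.5, 65.3 and 57.1 in the 5 Gy 12 h group, 56.2, 84.6 and 63.1 in the 20 Gy 12 h group, 3.42, 1.91 and 1.58 in the 5 Gy 24 h group and 2.84, 5.05 and 4.23 in the 20 Gy 24 h group. The 12 h libraries overlapped control and the 24 h libraries lay far below both. Its log2 changes were -4.46 ± 0.21 (SE, adjusted p = 3.4e-09) at 24 h after 5 Gy and -3.84 ± 0.21 (SE, adjusted p = 1.2e-08) after 20 Gy, beside -4.13 ± 0.23 and -3.30 ± 0.23 for Tubb4b. MSTRG.21917 (chr7:140615338-140638488, forward strand) spans the Tuba1a and Tuba1b genes on the other strand. It had 264, 212 and 215 in the control libraries, 115, 114 and 58.7 in the 5 Gy 12 h group, 178, 129 and 93.4 in the 20 Gy 12 h group, 4.52, 6.66 and 0 in the 5 Gy 24 h group and 14.2, 15.7 and 11.7 in the 20 Gy 24 h group. Its log2 change was -6.05 ± 0.56 (SE, adjusted p = 1e-06) after 5 Gy and -3.96 ± 0.56 (SE, adjusted p = 4.6e-05) after 20 Gy at 24 h, and at 12 h, when the means were lower in both doses, it did not pass the test (adjusted p = 0.12 and 0.36). Tuba1a and Tuba1b are near-identical in sequence, so reads may be split between them. Of 7 members overlapping 13 tubulin genes, a list also chosen with the values known, 6 were called lower after 5 Gy and 5 after 20 Gy at 24 h, with 0 higher, beside 20.9% and 23.7% of all loci lower. Their median log2 change was -2.20 and -1.63, again a description of a list picked by its values. The 3 members opposite Tubb2a were among them, and MSTRG.10004 was already lower at 12 h after 20 Gy, with 2.19, 0.969 and 0.267 against 5.57, 2.66 and 9.46 in control (-1.66 ± 0.38 SE, adjusted p = 0.0096).

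MSTRG.19222 had the largest rise of the members named at 12 h. It has 2 exons at chr5:167092590-167095893, reverse strand, and the last 3 bases of Mir34a, on the other strand, lie inside its end. The values were 2.68, 2.49 and 2.93 in the control libraries, 21.2, 20.6 and 25.5 in the 5 Gy 12 h group, 21.9, 20.0 and 22.8 in the 20 Gy 12 h group, 3.44, 4.92 and 4.83 in the 5 Gy 24 h group and 1.43, 0.966 and 1.21 in the 20 Gy 24 h group. Both 12 h groups stood above all other libraries, and at 24 h the 20 Gy libraries were below control. The log2 changes from control were 2.66 ± 0.13 (SE, adjusted p = 8.5e-08) and 2.61 ± 0.13 (SE, adjusted p = 9.4e-08) at 12 h, 0.53 ± 0.13 (SE, adjusted p = 0.0027) at 24 h after 5 Gy, which is under the 1.5-fold limit, and -0.75 ± 0.13 (SE, adjusted p = 0.00022) after 20 Gy. The log2 change from 12 h to 24 h after 20 Gy differed from that after 5 Gy by -1.24 ± 0.18 (SE, adjusted p = 0.0087). The Mir34a row itself had at most 0.558 FPKM and fell under the test's limit on level.

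Other targets of p53 had a member opposite as well. MSTRG.13896, a member opposite Cdkn1a, the p21 inhibitor of the cell cycle, had 3.61, 3.86 and 4.12 in control, 11.5, 13.8 and 11.3 and 8.79, 8.43 and 8.98 at 12 h, and 4.92, 7.75 and 4.56 and 2.52, 3.73 and 3.59 at 24 h. It rose at 12 h by 1.44 ± 0.16 (SE, adjusted p = 5.2e-05) and 1.00 ± 0.16 (SE, adjusted p = 0.00097) and was not called at 24 h, while Cdkn1a was higher in all 4 groups, by 2.36 ± 0.33, 3.76 ± 0.33, 2.79 ± 0.33 and 3.77 ± 0.33. MSTRG.1444, opposite the nuclease gene Aen, was called higher at 24 h only (0.70 ± 0.20 SE, adjusted p = 0.0082 after 5 Gy and 0.91 ± 0.20 SE, adjusted p = 0.0015 after 20 Gy). Of 26 p53 target genes, listed with results known, 4 were overlapped by a member. MSTRG.6746, opposite Phlda3, was not called.

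Members and their opposite-strand genes moved together in part. Of the 929 members, 883 faced a named locus that passed the level limit (789 distinct loci), and their median level was 6.79% of that locus (quartiles 2.60% and 21%), with 44 above it. Across these members Pearson's r of the log2 changes was 0.35 and 0.34 in the 5 Gy and 20 Gy groups of the early time and 0.53 and 0.58 in those of the late time, a description over loci that share libraries, reads and, for some, the partner. At 24 h after 20 Gy 377 of them were called. The partner was called the same way for 187, the other way for 28 and not called for 162, when 48.2% of the partners were called.

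**Figure D4:**
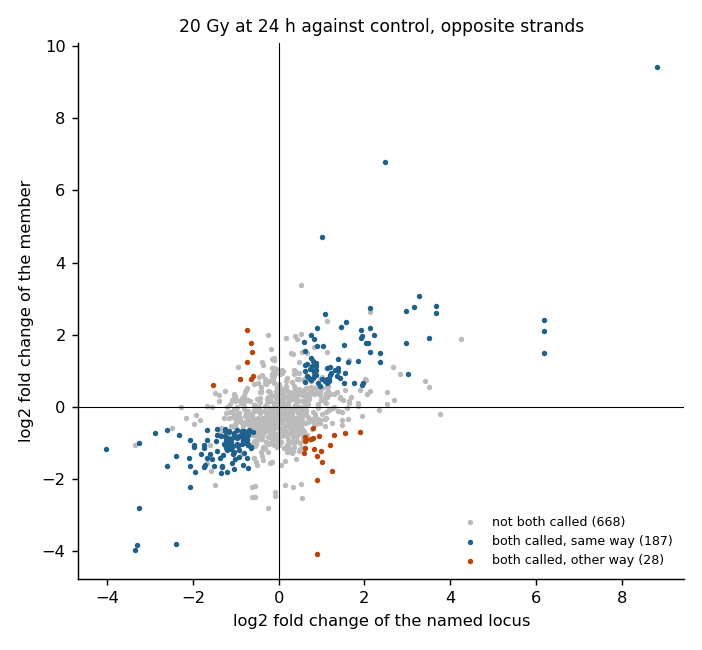
log2 fold change of each of 883 members (vertical axis) against that of the named locus on the opposite strand (horizontal axis), 20 Gy at 24 h against control, on the log2(FPKM + 1) scale. In 187 pairs both are called in the same direction (blue) and in 28 in opposite directions (orange).

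Several members changed alongside a named partner. MSTRG.14062 (chr20:10670450-10670829, forward strand), opposite Sik1, a salt-inducible kinase, had 2.13, 2.41 and 2.5 in control, 0.181 to 0.927 at 12 h, and 22.7, 23.2 and 25.5 and 29.1, 28.1 and 13.1 at 24 h. It fell at 12 h (-1.04 ± 0.27 SE, adjusted p = 0.016 and -1.14 ± 0.27 SE, adjusted p = 0.011) and rose at 24 h (2.89 ± 0.27 SE, adjusted p = 1.1e-06 and 2.79 ± 0.27 SE, adjusted p = 1.6e-06), as did Sik1, with -0.65 ± 0.10, -0.72 ± 0.10, 3.80 ± 0.10 and 3.66 ± 0.10. MSTRG.25033 (chrX:71552337-71555989, reverse strand) lies opposite Ogt, the O-GlcNAc transferase. Its values were 9.3, 6.07 and 6.12 in the control libraries, 20.2, 25.1 and 23.9 in the 5 Gy 12 h group, 17.3, 17 and 19.1 in the 20 Gy 12 h group, 2.33, 4.08 and 2.66 in the 5 Gy 24 h group and 2.65, 2 and 1.26 in the 20 Gy 24 h group. It rose at 12 h by 1.58 ± 0.20 (SE, adjusted p = 0.00014) and 1.23 ± 0.20 (SE, adjusted p = 0.0011) and was lower at 24 h, with -1.02 ± 0.20 (SE, adjusted p = 0.00062) and -1.46 ± 0.20 (SE, adjusted p = 3.4e-05), while Ogt rose at 12 h and was not called at 24 h. MSTRG.9590 (chr16:81213791-81216604, forward strand), opposite Gas6, the ligand of TAM receptors, had 1.67, 1.62 and 1.71 in the control libraries, 5.93, 4.79 and 6.12 in the 5 Gy 12 h group, 17, 16.1 and 11.9 in the 20 Gy 12 h group, 3.71, 4.33 and 3.5 in the 5 Gy 24 h group and 2.91, 3.78 and 3.1 in the 20 Gy 24 h group. It was higher in all 4 comparisons and rose further after 20 Gy than after 5 Gy at 12 h (1.27 ± 0.14 SE, adjusted p = 0.003), a call not made when only these 2 groups were fitted. Gas6 was also higher in all 4 comparisons, by 1.67 ± 0.14, 2.04 ± 0.14, 0.92 ± 0.14 and 1.13 ± 0.14 (SE). Its own difference between the doses at 12 h, 0.37 ± 0.14 (SE, adjusted p = 0.59), was not called, and the member was not tested against it.

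Other members that paralleled the gene opposite were MSTRG.22213 (Spc24, a kinetochore subunit), at 9.55, 18.6 and 15.5 in control and 0.899 to 5.56 at 24 h, and MSTRG.20776 at Cnn2, which encodes a calponin. MSTRG.20776 was lower in all 4 comparisons, from 69.1, 69.6 and 72.7 in control to 17 to 35.3 at 12 h and 33.8 to 41.4 at 24 h. Taken alone, its multi-exon transcript was not called in any of the 4. MSTRG.23398 overlaps Trip10, which was called higher at 24 h only, and rose in all 4, from 1.02, 1.38 and 1.27 in control to 5.07, 5.23 and 5.51 in the 20 Gy 12 h group and 11.7, 6.88 and 12.7 in the 20 Gy 24 h group. MSTRG.1548, opposite Cemip, a hyaluronan-binding protein, fell at 24 h after 20 Gy from 6.16, 6.54 and 7.6 to 0.033, 0.174 and 0.152 (-2.79 ± 0.47 SE, adjusted p = 0.00019). MSTRG.19408, opposite Prepl, was near 0 in control (0, 0.142 and 0.0225) and had 3.7, 4.2 and 4.93 at 24 h after 5 Gy against 1.62, 0.888 and 1 after 20 Gy, a log2 dose difference of -1.29 ± 0.14 (SE, adjusted p = 0.00026) that was not called from multi-exon transcripts alone.

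Some members changed while the gene opposite was not called. MSTRG.3554 (chr10:35707580-35709911, forward strand) lies opposite Sqstm1, the autophagy receptor p62. Its values were 16.2, 13.9 and 12.9 in the control libraries, 11.9, 10.4 and 10.8 in the 5 Gy 12 h group, 9.93, 10.5 and 10.8 in the 20 Gy 12 h group, 2.36, 2.95 and 3.11 in the 5 Gy 24 h group and 1.15, 1.22 and 1.18 in the 20 Gy 24 h group. The groups at 24 h did not overlap any other, nor each other, and the log2 changes were -2.01 ± 0.10 (SE, adjusted p = 6.1e-09) after 5 Gy and -2.81 ± 0.10 (SE, adjusted p = 2.8e-10) after 20 Gy. Sqstm1 had 275 to 289.6 in control and 228 to 246 at 24 h after 20 Gy (log2 change -0.26 ± 0.06, under the 1.5-fold limit). MSTRG.16644 (chr4:66334236-66335908, reverse strand), opposite the splicing factor gene Luc7l2, had 19.2, 20.8 and 22.6 in the control libraries, 7.99, 7.79 and 4.08 in the 5 Gy 12 h group, 11.9, 7.69 and 4.49 in the 20 Gy 12 h group, 2.83, 5.06 and 4.69 in the 5 Gy 24 h group and 2.99, 6.06 and 2.73 in the 20 Gy 24 h group. It fell in all 4 comparisons, with log2 changes of -1.56 ± 0.33 (SE, adjusted p = 0.0046), -1.36 ± 0.33 (SE, adjusted p = 0.012), -2.10 ± 0.33 (SE, adjusted p = 9.3e-05) and -2.21 ± 0.33 (SE, adjusted p = 6.5e-05), and the second of these was not called without replicate 3 of the 20 Gy 12 h group. Luc7l2 had 36.1 to 44.7 in control and 47.5 to 53.7 at 24 h after 20 Gy. MSTRG.19881, opposite Slc25a21, a mitochondrial carrier, went from 7.31, 6.89 and 7.89 in control to 0.112, 0.171 and 0.234 and 0.482, 0.562 and 0.357 at 24 h (-2.83 ± 0.18 SE, adjusted p = 3.8e-08 and -2.51 ± 0.18 SE, adjusted p = 1.1e-07). Slc25a21 changed by -0.40 ± 0.20 and -0.56 ± 0.20, with no call.

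MSTRG.3812 (chr10:48880934-48881866, reverse strand), opposite Ubb, a polyubiquitin gene, was among the 10 highest members and lay above its partner in mean. It had 456, 448 and 467 in the control libraries, 355, 365 and 410.1 in the 5 Gy 12 h group, 367, 405 and 399 in the 20 Gy 12 h group, 419, 388 and 365 in the 5 Gy 24 h group and 703, 621 and 644 in the 20 Gy 24 h group. After 20 Gy its level at 24 h exceeded every other library, and the doses differed at 24 h by 0.75 ± 0.08 (SE, adjusted p = 0.0003). Against control the change of 0.52 ± 0.08 (SE, adjusted p = 0.00013) stayed under the 1.5-fold limit. Ubb itself was called higher than control at 24 h after 20 Gy, by 1.00 ± 0.34 (SE, adjusted p = 0.022).

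The members with the most exons resembled genes in structure. MSTRG.8812, with 38 exons over 278 kb (chr15:61160292-61438365, forward strand), begins 7.7 kb past the end of Vwa8 on the same strand and was steady, at 8.21 to 13.5 over all libraries, with no call in any comparison. MSTRG.12656, with 36 exons over 401 kb, holds Mab21l1 on its other strand. It had 8.62 to 12.4 in control and 12 h libraries and 15.2 to 19.3 at 24 h, rising by 0.75 ± 0.12 (SE, adjusted p = 0.00014) and 0.61 ± 0.12 (SE, adjusted p = 0.00072), whereas the log2 changes of Mab21l1 were -1.98 ± 0.14 and -1.52 ± 0.14. MSTRG.6007, with 32 exons, lies 0.65 kb downstream of AABR07035479.1 on the same strand, and both were lower at 24 h. The member had 15.3 to 18.5 before and 6.51 to 9.31 at 24 h, and its log2 changes of -0.93 ± 0.11 and -1.11 ± 0.11 stood beside -0.86 ± 0.11 and -1.10 ± 0.11 for the named locus. MSTRG.8341, with 21 exons over 36.7 kb (chr15:17958788-17995503, reverse strand), had 56.1 to 69.1 before 24 h, 40.9, 34.7 and 37.3 after 5 Gy and 27.1, 25.8 and 30.5 after 20 Gy at 24 h, log2 changes of -0.75 ± 0.10 (SE, adjusted p = 1.6e-05) and -1.17 ± 0.10 (SE, adjusted p = 3.3e-07). MSTRG.15505, with 28 exons, was called lower only at 12 h after 5 Gy, at 1.71, 1.25 and 1.58 against 3.19, 2.17 and 3.49 in control (-0.64 ± 0.19 SE, adjusted p = 0.028).

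Away from named genes, MSTRG.5311 (chr11:52546175-52552687, forward strand), a 2-exon transcript of 6220 bases over 50 kb from any named locus, had 13, 15.2 and 10.8 in the control libraries, 29.3, 29.3 and 29 in the 5 Gy 12 h group, 37.6, 44.3 and 38.4 in the 20 Gy 12 h group, 2.88, 2.68 and 2.53 in the 5 Gy 24 h group and 6.69, 7.79 and 4.34 in the 20 Gy 24 h group. It rose at 12 h by 1.12 ± 0.16 (SE, adjusted p = 0.00032) and 1.56 ± 0.16 (SE, adjusted p = 2.8e-05) and was lower at 24 h, with -1.91 ± 0.16 (SE, adjusted p = 3.6e-07) and -0.96 ± 0.16 (SE, adjusted p = 0.00016), and at 24 h it was higher after 20 Gy than after 5 Gy (0.95 ± 0.16 SE, adjusted p = 0.0052). MSTRG.1435 (chr1:137419067-137427306, forward strand), 60.0 kb from Klhl25 and 8078 bases long, rose in all 4 comparisons, from 9.58, 9.73 and 9 in control to 23.4 to 29.8 at 12 h, 20.1, 26.1 and 30.1 at 24 h after 5 Gy and 17.6, 13 and 19.1 after 20 Gy (1.36 ± 0.15 SE, adjusted p = 5.4e-05, 1.40 ± 0.15 SE, adjusted p = 5.3e-05, 1.32 ± 0.15 SE, adjusted p = 7e-06 and 0.74 ± 0.15 SE, adjusted p = 0.001). Klhl25 itself was called higher in all 4. MSTRG.5303, 154 kb from Zpld1, was lower only at 12 h after 5 Gy, at 2.13, 2.41 and 1.58 against 5.18, 6.96 and 8.41 (-1.36 ± 0.18 SE, adjusted p = 0.00016). MSTRG.14168 (chr20:19483978-19485245, forward strand), head to head with Fam13c, was among the highest members and went from 418, 378 and 453 in control to 154, 133 and 139 and 153, 156 and 96.7 at 24 h (-1.55 ± 0.15 SE, adjusted p = 1.2e-06 and -1.64 ± 0.15 SE, adjusted p = 7.6e-07). MSTRG.17629 fell in the same way, from a range of 382 to 499.8 in control to one of 74.9 to 189.8 at 24 h, together with AABR07046778.1 on the other strand. Of the other highest members, MSTRG.20585 and MSTRG.1853 were called in no comparison and kept to 352 to 528 and 222 to 316.

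Neighbouring members on 1 strand fell together in places. MSTRG.409 and MSTRG.410, which overlap each other at chr1:54423183-54456017 and chr1:54432241-54454784, had 31.1, 41.5 and 41.4 and 12.7, 14.8 and 17.2 in control. At 12 h MSTRG.409 had 9.09 to 15.2 and at 24 h 4.21 to 5.92, with log2 changes of -1.57 ± 0.19 (SE, adjusted p = 0.00011), -1.61 ± 0.19 (SE, adjusted p = 0.00011), -2.80 ± 0.19 (SE, adjusted p = 7.3e-08) and -2.73 ± 0.19 (SE, adjusted p = 9.8e-08). MSTRG.22773 and MSTRG.22774 follow each other at chr8:76847992-76850545 and chr8:76851242-76861254 between Myo1e and Rnf111. MSTRG.22774 went from 33, 39.4 and 42.2 in control to 13.2 to 24.1 at 12 h, 3.16, 2.8 and 3.29 at 24 h after 5 Gy and 4.31, 12.1 and 7.71 after 20 Gy, and MSTRG.22773 from 12.2, 20.8 and 16.4 to 1.27, 1.21 and 1.08 and 1.1, 5.84 and 2.01 at 24 h. The log2 changes at 24 h were -3.26 ± 0.29 (SE, adjusted p = 6.1e-07) and -2.20 ± 0.29 (SE, adjusted p = 2.1e-05) for MSTRG.22774, and -2.97 ± 0.44 (SE, adjusted p = 6.3e-05) and -2.29 ± 0.44 (SE, adjusted p = 0.00056) for MSTRG.22773. At 12 h the calls were less firm, since leaving out replicate 2 or 3 of control ended both 12 h calls of MSTRG.22774, and leaving out any control library among others ended that of MSTRG.22773 after 20 Gy (adjusted p = 0.049).

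Among members called one way in all 4 comparisons, MSTRG.10653 (chr18:24780520-24782410, forward strand), inside Myo7b on the other strand, had 228, 171 and 185 in the control libraries, 114, 70.7 and 70.6 in the 5 Gy 12 h group, 75.3, 81.4 and 60.6 in the 20 Gy 12 h group, 63.6, 101 and 78.4 in the 5 Gy 24 h group and 61.3, 64.1 and 34.8 in the 20 Gy 24 h group, and Myo7b was near 0. Its changes were -1.21 ± 0.25 (SE, adjusted p = 0.0045), -1.41 ± 0.25 (SE, adjusted p = 0.0019), -1.27 ± 0.25 (SE, adjusted p = 0.00067) and -1.88 ± 0.25 (SE, adjusted p = 2.6e-05), and from its multi-exon transcripts alone only the last was called. MSTRG.20467, with 35 transcripts, rose from 17.2, 15.2 and 13.8 in control to 22.9, 24.3 and 29 and 30.0, 25.4 and 33.2 at 12 h and 36.5, 42.2 and 54.4 and 49.4, 41.7 and 70.8 at 24 h. The smallest of its changes, 0.68 ± 0.19 (SE, adjusted p = 0.021) at 12 h after 5 Gy, was not called without replicate 2 or 3 of control or replicate 3 of that group. MSTRG.5316, a member of 10 exons over 209 kb, rose in all 4, from a range of 1.64 to 2.03 in control to one of 5.92 to 9.58 at 12 h and 7.05 to 9.06 at 24 h after 5 Gy. MSTRG.5071, over 419 kb, rose in all 4 as well, from a range of 0.439 to 1.15 in control to one of 3.19 to 5.43 at 12 h after 20 Gy.

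Some members shared their span with another member on the opposite strand. MSTRG.22055 and MSTRG.22056, the highest of all members, share the span chr8:181188-182329 on opposite strands, far from Gucy1a2. MSTRG.22055 had 1125, 451 and 429 in the control libraries, 548, 562 and 480.1 in the 5 Gy 12 h group, 1365, 634 and 1027 in the 20 Gy 12 h group, 417, 528 and 1559.8 in the 5 Gy 24 h group and 0.165, 772 and 286 in the 20 Gy 24 h group, and MSTRG.22056 had 944, 413 and 757 in the control libraries, 503, 844 and 22.9 in the 5 Gy 12 h group, 554, 187 and 233 in the 20 Gy 12 h group, 335, 492 and 13 in the 5 Gy 24 h group and 1599.6, 1198 and 123 in the 20 Gy 24 h group. Libraries of 1 group differed widely, and no comparison called either. The coefficient of variation over the 15 libraries was 61.9% and 82.5% for the loci and 42.6% for their sum. MSTRG.86 and MSTRG.87 share all of chr1:11903552-11973055, which holds rows of RF00002, a ribosomal RNA family. They had 211 to 743 and 165 to 501 and were called in no comparison. Their coefficients of variation were 36.9% and 33.9%, and that of their sum was 34.6%. In all, 179 members overlapped another member on the opposite strand, in 106 pairs. Of 93 pairs with a summed mean of at least 2 FPKM, the sum varied less over the libraries than either locus in 47. Summing loci can lower this variation by itself, and whether reads were split between the strands was not tested.

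**Figure D5:**
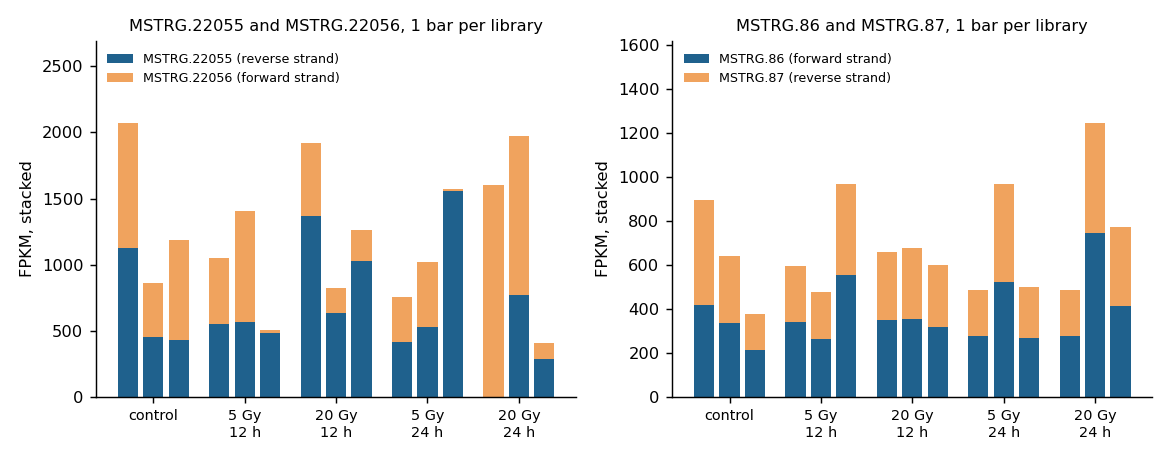
FPKM of 2 pairs of members that share a span on opposite strands, stacked in 1 bar per library and grouped by treatment. In MSTRG.22055 and MSTRG.22056 one strand can hold nearly the whole bar, as in replicate 1 of the 20 Gy 24 h group, while MSTRG.86 and MSTRG.87 both hold a part of every bar.

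Values of 0 were more frequent among members than among named multi-exon loci, both taken with a mean FPKM of 5 or more. Of 333 members with a mean of 5 or more, 26 were at 0 in at least 1 library, against 1 of 8822 named multi-exon loci. The 2 sets were not matched in level, and over all loci tested the median was 11.5 for named multi-exon loci and 1.29 for members. Unannotated single-exon loci were not compared. MSTRG.5481 (chr11:70965889-70966560, reverse strand), head to head with Iqcg, had 1.36, 18.4 and 71 in the control libraries, 0, 41.5 and 1.07 in the 5 Gy 12 h group, 51.3, 1.52 and 43.3 in the 20 Gy 12 h group, 1.09, 39.1 and 26.7 in the 5 Gy 24 h group and 0, 0 and 0 in the 20 Gy 24 h group. The fall from 12 h to 24 h after 20 Gy (-4.17 ± 1.63 SE, adjusted p = 0.043) was lost on leaving out any library of those groups but replicate 2 at 12 h, and on leaving out replicate 2 of control. MSTRG.10522, on the strand of Greb1l, was listed at 0 in all control and 12 h libraries and had 36.8, 2.25 and 0 at 24 h after 5 Gy and 17.2, 9.49 and 3.89 after 20 Gy. It passed the level limit only through its 24 h libraries, so that limit favoured a rise at 24 h. MSTRG.24269 was at 0 in control and had 7.53, 7.36 and 8 at 24 h after 5 Gy, with 7.48, 0 and 8.25 after 20 Gy. MSTRG.5561 (chr11:79192623-79203412, forward strand), opposite Lpp, had 18.9, 17.8 and 16.2 in the control libraries, 0.12, 1.4 and 13 in the 5 Gy 12 h group, 0.0613, 0.608 and 0 in the 20 Gy 12 h group, 22.1, 0.423 and 0.347 in the 5 Gy 24 h group and 0, 0.258 and 0.0389 in the 20 Gy 24 h group. Taken alone, its multi-exon transcripts were not called after 20 Gy at either time, with a log2 change of 0.13 at 12 h in place of -3.96, and Lpp itself was called higher at 24 h. MSTRG.21341, opposite Ccn3, was at 0 to 0.212 in control and ranged over 0.151 to 25.4 at 12 h after 5 Gy, and its call at 24 h after 20 Gy (3.39 ± 1.08 SE, adjusted p = 0.015) was lost without replicate 3 of that group. MSTRG.25073 fell from 70.3, 54.5 and 54.8 to 6.51, 9.67 and 0 at 24 h after 20 Gy (-3.81 ± 0.65 SE, adjusted p = 0.00022), and MSTRG.2454 from 16.2, 13 and 5.68 at 12 h to 0.066, 0 and 0.09 at 24 h after 5 Gy (-3.48 ± 0.85 SE, adjusted p = 0.0033).

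The remaining members named by the rule were low. At 12 h after 5 Gy, MSTRG.548 had 5.22, 6.61 and 5.84 against 0.654, 0 and 0.00485 in control (2.53 ± 0.53 SE, adjusted p = 0.0045), MSTRG.6281 had 4.14, 6.18 and 5.45 against 0.9, 1.87 and 0.389 (1.66 ± 0.37 SE, adjusted p = 0.0074), and MSTRG.5 had 4.47, 4.15 and 2.2 against 0.606, 0.819 and 0.363 (1.5 ± 0.38 SE, adjusted p = 0.014). MSTRG.24145, opposite LOC100359583, fell in that comparison from 1.51, 1.93 and 2.92 to 0, 0 and 0.705 (-1.36 ± 0.39 SE, adjusted p = 0.026). The calls of MSTRG.5 and MSTRG.24145 were lost without replicate 3 of control or replicate 1 or 2 of the 5 Gy 12 h group, and that of MSTRG.24145 also without replicate 2 of control. MSTRG.24448, on the unplaced sequence KL567986.1 at 2439 to 4334, had 6.86, 1.86 and 3.76 at 24 h after 5 Gy against 0.228, 0.289 and 0.0966 after 20 Gy (-1.98 ± 0.35 SE, adjusted p = 0.0072), and this was not called when only those 2 groups were fitted.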

How the data were processed

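Poly-A selected RNA of 15 rat BMEC libraries was sequenced, 3 in each of 5 groups that were taken from the sample labels. The authors deposited 1 FPKM per transcript and library, from reads that their processing notes and methods say were trimmed with Trimmomatic, aligned to Rnor 6.0 with HISAT2 2.0.13 and assembled and quantified with StringTie. FastQC and kallisto are named in the notes too. No column of the table lacked a sample. The FPKM of a locus was summed over its transcripts. FPKM is no count, so limma 3.58.1 (R 4.3.3) was fitted to log2(FPKM + 1) with 1 mean per group and a trended variance prior, over 17802 loci with a mean FPKM of at least 0.5. A pseudocount of 1 understates the change of low loci. A call needed 1.5-fold and, after Benjamini-Hochberg adjustment over these loci, p under 0.05. Tables and figures were made with Python 3.11.15, pandas 2.3.3, numpy 2.4.6 and matplotlib 3.10.9, and the fit was tested on simulated data.

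Members and lists were chosen with earlier results of these data known. Members were named by rule: the 10 with the highest mean, the 5 with the most exons, the 6 largest rises and 6 largest falls in each comparison with control among members called, averaging at least 1 FPKM, whose groups did not overlap, 3 and 3 between times, 2 and 2 between doses, the 5 highest called 1 way in all 4 comparisons, the 3 nearest the level limit on each side, and the nearest named locus of each. The heat shock, tubulin and p53 lists, and the members named from them, were picked after their values were seen, and 1 gene left out of the heat shock list is not reported here. The methods speak of biological replicates, and the labels do not say which culture each came from, so p-values may measure technical spread. Alternatives were another pseudocount, filter, scaling, variance prior, locus sum, fold limit and sample set, a replicate block and leaving out each library. Coordinates are those of the table (Rnor_6.0), and the printed sequences are from RefSeq GRCr8, in which 3 of 5 LOC names of the table matched a symbol.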

Additional observations from a re-analysis of the deposited data

Results flagged for a closer look

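The doses differed by the test of the difference itself for 11 of the members named by rule and for 4 more from the lists of heat shock and p53 target genes. Some of the 11 were named because they were already called between the doses, so these counts were partly set by the naming. Over all loci tested, limma called 0.174% between the doses at 12 h and 2.59% at 24 h. At 12 h MSTRG.9590, opposite Gas6, was higher after 20 Gy than after 5 Gy by 1.27 on the log2 scale. At 24 h 7 of the 12 members overlapping heat shock and ubiquitin genes were called higher after 20 Gy, beside 1.04% of all loci. This list was picked after its values were seen, so its count is no independent evidence of a direction. With only these 2 groups fitted, the calls among all members at 24 h went from 75 to 10. The log2 differences of the 7 were 2.36 (MSTRG.20405), 2.02 (MSTRG.13754), 1.92 (MSTRG.22337), 1.84 (MSTRG.11363), 1.72 (MSTRG.5817), 1.68 (MSTRG.5818) and 0.75 (MSTRG.3812). The other 5, MSTRG.23840 among them, were not called. MSTRG.11363, MSTRG.5817 and MSTRG.5818 passed the level limit only through the 20 Gy 24 h group, so that limit favoured their difference. Also higher after 20 Gy was the intergenic MSTRG.5311 by 0.95. The log2 difference was below 0 for MSTRG.24448 (-1.98), MSTRG.19222 beside Mir34a (-1.29), MSTRG.19408 opposite Prepl (-1.29), MSTRG.3554 opposite Sqstm1 (-0.80), MSTRG.13896 opposite Cdkn1a (-0.64) and MSTRG.1435 (-0.59).

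The change from 12 h to 24 h differed between the doses for 19 members, or 8 to 37 with 1 library left out (replicate 1 of the 20 Gy 12 h group and replicate 3 of the 20 Gy 24 h group). Of all loci tested, 0.652% were called. Among the 19 were 7 of the members named or listed, some of them named by their difference between the doses. MSTRG.5817, MSTRG.5818 and MSTRG.3812 had log2 changes higher after 20 Gy than after 5 Gy by 1.72, 1.68 and 0.69. MSTRG.5817 and MSTRG.5818 were at 0 at 12 h and passed the level limit only through the 20 Gy 24 h group, so that limit favoured their difference. MSTRG.9590 (-1.45), MSTRG.19222 (-1.24), MSTRG.19408 (-1.06) and MSTRG.3554 (-0.72) had log2 changes lower after 20 Gy than after 5 Gy.

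Outside the members, 34 unannotated multi-exon loci with a mean FPKM below 0.5 over all libraries had a mean of at least 1 in an exposed group, with its 3 libraries above every control library. They were not tested.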

How the results depend on the processing

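The counts of members called were 233, 206, 772 and 779 against control (in the order 5 Gy and 20 Gy at 12 h, then at 24 h), 759 and 794 between the times after 5 and 20 Gy, 1 and 75 between the doses at 12 h and 24 h, and 19 for the difference between doses in the change over time. With a mean FPKM of at least 1 the first 6 became 142, 128, 506, 497, 490 and 514, since fewer members were tested, and with a fold change of at least 2 they became 73, 71, 357, 352, 336 and 340. The 2-fold limit also gave 21 between the doses at 24 h and 12 for the difference over time. The single member between the doses at 12 h became 2 with a pseudocount of 0.1, TPM, multi-exon transcripts only or the highest transcript of each locus, 3 with quantile normalization and 0 with only the groups compared. The 75 at 24 h became 137 with TPM and 10 with only the groups compared. The 19 became 12 with a pseudocount of 0.1, and 10 without a filter or with only the groups compared. Apart from the fewer loci or samples noted, the cause was not tested. The higher share of the calls between the doses at 24 h was 45.3%, against 59% with quantile normalization and 27.7% with TPM.

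Leaving out each library gave 205 to 245, 167 to 208, 744 to 780, 748 to 800, 710 to 766, 730 to 814, 1 to 2, 57 to 90 and 8 to 37 calls in the same order. The 8 came without replicate 1 of the 20 Gy 12 h group, and the 37 without replicate 3 of the 20 Gy 24 h group. Correlations of deviations from the group means were -0.188 to 0.317 for libraries of the same replicate number and -0.261 to 0.261 for others. Between the doses at 1 time all 6 same-number correlations were above 0 (0.0548 to 0.317, 4 of them over 0.1), against -0.261 to 0.0691 for other numbers, and 11 of 12 libraries were closest to their own number. This is a hint of pairing between doses from the data, not the design, and not every pair passed 0.1, so the numbers were not taken as pairs. A replicate block gave 230, 197, 772, 775, 754, 790, 1, 76 and 14. That block gives each replicate number 1 effect shared by all groups, so it does not model pairs of doses at 1 time.

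Among 82 log2 changes of named members, 847 of 902 alternative values kept direction and call, 54 lost the call and 1 reversed, MSTRG.5561 at 12 h after 20 Gy with multi-exon transcripts only (0.13). Of 1230 values with a library left out, 1193 kept both, 37 lost the call and 0 reversed. The 82 changes were named because they were already called, so these counts were partly set by the naming. The share of FPKM held by members fell to 2.53%, 2.47%, 2.59% and 2.48% with multi-exon transcripts only (control, 5 Gy 12 h, 20 Gy 12 h and 5 Gy 24 h), and to 2.24%, 2.13%, 2.13%, 2.06% and 2.44% in the 5 groups with the highest transcript only. For low members the depth limits the precision, since the lowest member had 4.74 read equivalents per library.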
